A study of Mus musculus with 21 samples.

Results

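The genes described here are 39 mouse genes that copy DNA or switch cells into S phase, chosen by symbol from a list grouped by role, and followed in lung epithelium and lung fibroblasts before and after birth. All 39 were rows of both kinds of table, among 23869 genes in the epithelial and 21170 in the fibroblast tables. The libraries were 3' SAGE-seq libraries, in which short tags from the 3' ends of polyadenylated RNA are sequenced and counted, made from amplified RNA of sorted cells and read on an Ion Proton sequencer. Lungs came from C57BL/6 mice at embryonic day 18.5 (E18.5) and postnatal days 0.5, 2, 7, 28 and 56 (P0.5 to P56), with 2 libraries of each cell type at each stage up to P28 and 1 fibroblast library at P56, or 21 libraries in all. All groups carried the Col1a2-GFP transgene, in which a collagen gene's promoter drives green fluorescent protein, and no group received a treatment. Epithelial cells were sorted as positive for Epcam, and negative for GFP per the sorting protocol, although the label of the E18.5 epithelial libraries names no GFP gate. Fibroblasts were the GFP-positive, Epcam-negative cells, so cells in which that promoter is silent are not among them. Both sorts left out cells with CD31, CD45, CD146 or Ter119, which mark endothelial cells, leukocytes, pericytes and other vascular cells, and red cells. The labels do not say whether replicate libraries came from separate animals or from pools, so the p-values measure the spread between these libraries, which may be technical.

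A cell copies its genome once per division. In G1 the origin recognition complex, Cdc6 and Cdt1 load the ring-shaped MCM2-7 helicase onto origins, and at S phase entry Cdc45 and the GINS complex turn it into an active helicase. Primase and the DNA polymerases then make new strands, held to the template by the PCNA clamp that replication factor C loads, while ribonucleotide reductase, thymidine kinase and thymidylate synthase supply nucleotides. Many of these genes are targets of E2F transcription factors, which cyclin-CDK activity frees from the retinoblastoma family. In the lung, both epithelium and mesenchyme divide while alveoli form after birth and divide little in the adult.

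The promoters of these genes were searched for E2F sites, because E2F is the factor best known to drive them together. RefSeq promoters (assembly GRCm38.p6, 250 bases before to 50 bases after each start) were found for 33 of the 39 members, not for Pole, Gins2, Rfc2, Mcm4, Gins1 and Ccne2. The E2F octamers TTTCCCGC, TTTCGCGC, TTTGCCGC and TTTGGCGC, on either strand, were present in 14 of the 33: Cdc6, Cdt1, Dnmt1, Gins3, Lig1, Mcm3, Mcm5, Mcm6, Mcm7, Orc1, Pola1, Pold1, Rfc3 and Uhrf1. Of all 27025 genes with such a promoter, 704 (2.605%) held one of these octamers. The CCAAT box CCAAT was in 20 of the 33 members and 41.1% of all genes, and the GC box GGGCGG in 25 of the 33 and 38.2% of all genes, and both can share end letters with an octamer. The CHR element TTTGAA was in 5 of the 33 and 20.2% of all genes. The stretches below are examples from members that passed the test in at least 1 comparison, and from Mcm6, in which a pair of octamers overlaps on opposite strands; capitals mark the octamers, as read along the gene's own strand.
Mcm6 (chr1:128359778-128359827, minus strand): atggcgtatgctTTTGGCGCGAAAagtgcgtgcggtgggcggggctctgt
Cdc6 (chr11:98907991-98908040, plus strand): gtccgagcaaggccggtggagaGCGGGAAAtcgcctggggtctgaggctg
Pola1 (chrX:93632266-93632315, minus strand): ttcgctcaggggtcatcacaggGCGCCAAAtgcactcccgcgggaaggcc
Uhrf1 (chr17:56304108-56304157, plus strand): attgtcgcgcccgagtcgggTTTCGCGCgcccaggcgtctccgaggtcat
Mcm7 (chr5:138172019-138172068, minus strand): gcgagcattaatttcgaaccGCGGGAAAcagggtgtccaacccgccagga
Mcm3 (chr1:20820263-20820284, minus strand): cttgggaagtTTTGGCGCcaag
The first 5 stretches lie before the RefSeq start used for the promoter, and that of Mcm3 lies just after it. For Cdc6, Uhrf1 and Mcm7 the GENCODE span begins further upstream, and by it their stretches lie inside the gene. No octamer was found in the windows of Prim1, Tk1, Rrm1, Pcna or E2f1. A match describes letters in a window and is not evidence of binding.

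Depth ran from 2146071 to 5729829 reads per library, and in each of the 10 groups with 2 libraries the replicates differed by more than counting noise (chi-square per degree of freedom 4.64 to 10.6). Values below are the deposited normalised read counts, replicate 1 before replicate 2, in which 1 read was worth a fixed amount per library, and a level set across the cell types is from tables that may have been scaled apart. Epithelial and fibroblast markers were highest in the cells sorted for them, but markers of cells meant to be left out were also present. The summed epithelial markers (8 genes, among them Epcam, Sftpc and Ager) were 8629.7 to 23652 in epithelium and 9.24 to 44.4 in fibroblasts, where Epcam or Cdh1 was at 0 in every group. Summed fibroblast markers (6 genes, among them Col1a2 and Vim) were 11777 to 39628 in fibroblasts and 156 to 876 in epithelium up to P7, but 2298 to 2380 in epithelium at P28. Leukocyte markers other than Cd74, which epithelium also expresses, summed to 28.8 to 406 in epithelium up to P7 and to 1143 to 1329 at P28. Erythroid markers summed to 2062 to 7400 in both cell types at P0.5 and P2, and to 56.6 to 304 at P7. In bulk RNA, fewer cells of a type and less RNA per cell cannot be told apart, and this holds for every change below.

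Summed over all 39 members, with no filter, replication and S phase transcripts had their highest mean at P7 in both cell types, and at P28 they stayed high in epithelium but not in fibroblasts. In epithelium the sums were 293 and 286 at E18.5, 236 and 202 at P0.5, 267 and 300.2 at P2, 656 and 641 at P7, and 687 and 501 at P28. The P7 and P28 epithelial libraries lay above all earlier ones. In fibroblasts the sums were 349 and 309 at E18.5, 209.9 and 215 at P0.5, 418 and 508 at P2, 751 and 534 at P7, 243 and 245 at P28, and 188 at P56. The fibroblast P28 and P56 libraries lay below both E18.5 libraries, and the P2 and P7 libraries above them. The ratio of mean sums was 2.29 from P2 to P7 in epithelium and 0.917 from P7 to P28. In fibroblasts it was 2.18 from P0.5 to P2, 1.39 from P2 to P7 and 0.380 from P7 to P28. Without the 5 members with the highest values (Prim1, Pold1, E2f1, Tk1 and Fen1) the same ratios were 2.61, 0.895, 2.51, 1.30 and 0.370. By group mean, 23 members were highest at P7 in epithelium, 10 at P28, 4 at E18.5 and 2 at P0.5, while 28 were highest at P7 in fibroblasts, 7 at P2, 3 at E18.5 and 1 at P56.

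**Figure D1:**
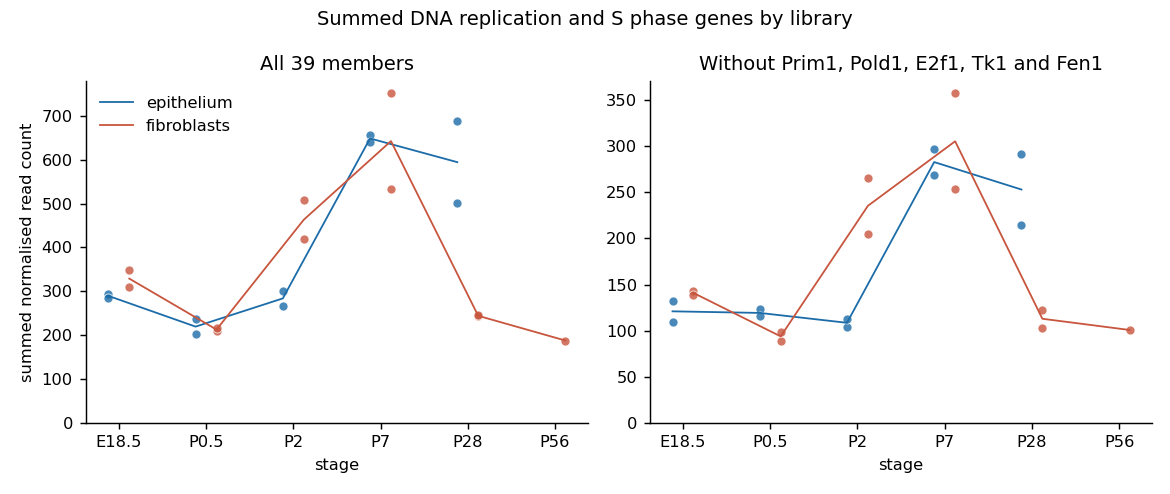
Summed normalised read count (vertical axis) of the 39 genes in each library (points) by stage (horizontal axis), with lines through stage means, for epithelium (blue) and fibroblasts (red); the right panel leaves out the 5 genes with the highest values. Both cell types are highest around P7, and at P28 the epithelial sums of 687 and 501 stand above the fibroblast sums of 243 and 245.

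**Figure D2:**
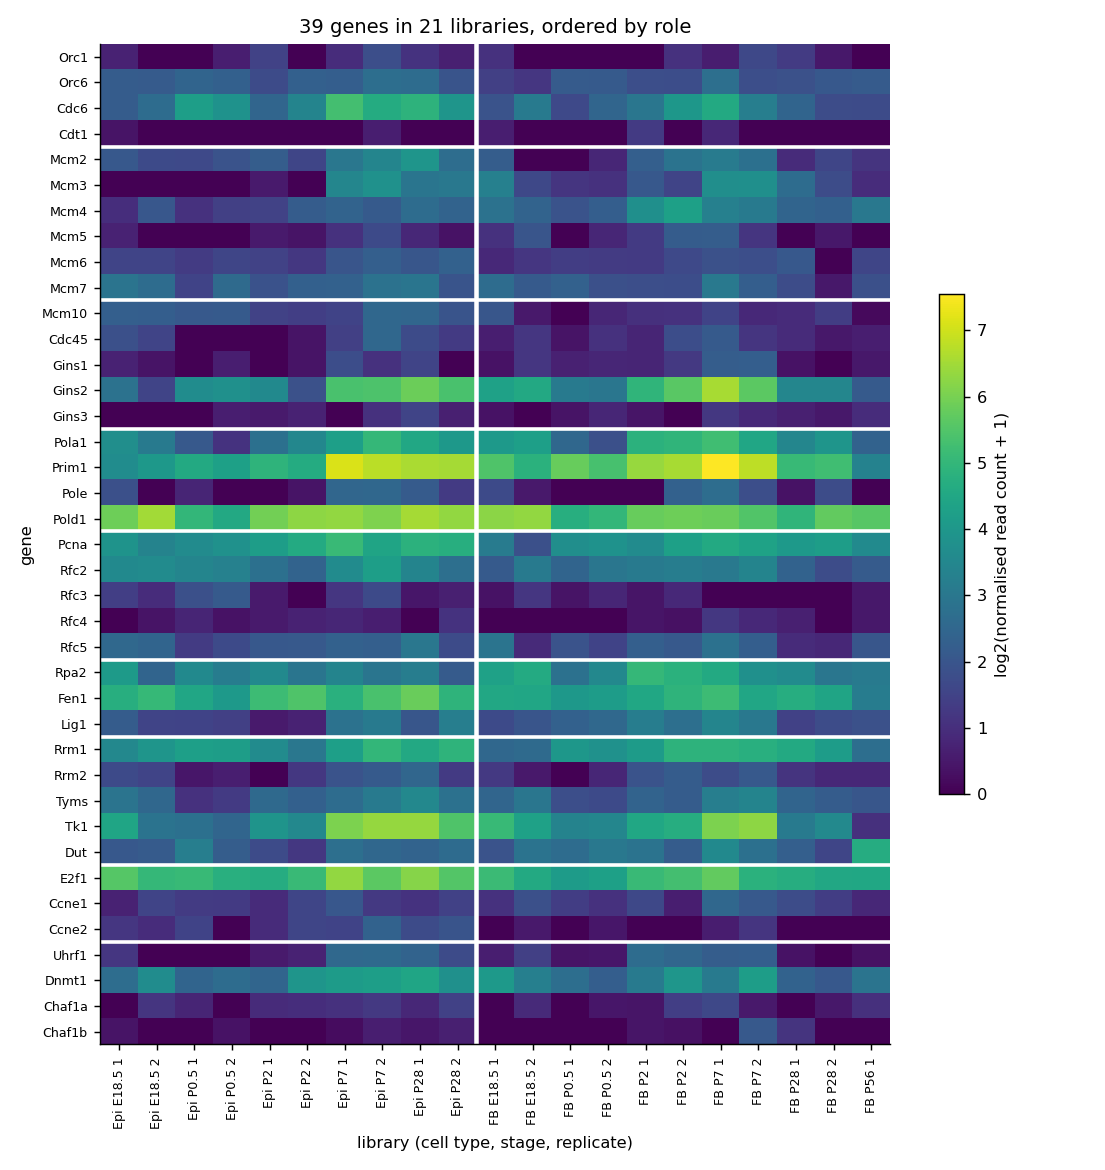
Values of all 39 genes (rows, with white lines between the 9 role groups) in 21 libraries (columns, epithelium left and fibroblasts right of the thick line), coloured by log2(normalised read count + 1). The P7 columns are bright in both cell types, the P28 columns in epithelium only, and many licensing, clamp loader and chromatin genes are near 0 throughout.

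Origin licensing was represented mainly by Cdc6 (chr11:98907801-98923940 by GENCODE), the loading ATPase, since Orc1 and Cdt1 stayed at or under 2.52 in every library. In epithelium Cdc6 values were 3.57 and 5.37 at E18.5, 17.6 and 13.3 at P0.5, 4.56 and 9.56 at P2, 37.9 and 23.8 at P7, and 28.6 and 14.4 at P28. In fibroblasts Cdc6 was 2.81 and 7.68 at E18.5, 2.203 and 4.49 at P0.5, 6.75 and 15.1 at P2, 23.1 and 8.35 at P7, 4.43 and 2.39 at P28, and 2.28 at P56. Epithelial Cdc6 was higher in both P7 and both P28 libraries than in any E18.5 or P2 library, whereas the fibroblast P7 replicates were far apart and the second lay within the P2 range. Orc6, a subunit of the origin recognition complex, ranged only from 2.28 to 5.60 in epithelium and from 1.28 to 5.78 in fibroblasts, and it did not pass the test in any comparison.

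Among the 6 MCM2-7 helicase subunits, Mcm3 (chr1:20802968-20820312) was at or near 0 in epithelium before P7. Mcm3 in epithelium was at 0 and 0 at E18.5, 0 and 0 at P0.5, 0.456 and 0 at P2, 10.1 and 13.1 at P7, and 6.56 and 7.20 at P28. Fibroblast Mcm3 was 8.71 and 2.13 at E18.5, 1.26 and 1.12 at P0.5, 3.20 and 1.92 at P2, 12.3 and 12.5 at P7, 5.32 and 2.39 at P28, and 0.940 at P56. In epithelium it gave 1 read in all 6 libraries up to P2 and 6.56 or more in all 4 later ones, and in fibroblasts both P7 libraries were above every other. The epithelial Mcm2 values were 3.24 and 2.21 at E18.5, 2.203 and 2.83 at P0.5, 3.65 and 1.98 at P2, 6.91 and 9.79 at P7, and 14.3 and 5.47 at P28. The fibroblast libraries had Mcm2 at 3.65 and 0 at E18.5, 0 and 0.749 at P0.5, 3.91 and 6.31 at P2, 7.88 and 5.85 at P7, 0.886 and 1.99 at P28, and 1.21 at P56. Mcm2 was above 5 in all 4 epithelial libraries from P7 on, and both fibroblast P28 libraries lay below all P2 and P7 libraries. In fibroblasts Mcm4 stood at 6.18 and 4.27 at E18.5, 2.83 and 3.74 at P0.5, 12.4 and 18.4 at P2, 8.67 and 7.52 at P7, 4.43 and 3.99 at P28, and 7.12 at P56. Fibroblast Mcm4 was highest in both P2 libraries, with no overlap with another stage. Epithelial libraries had Mcm7 at 6.49 and 5.37 at E18.5, 1.84 and 5.09 at P0.5, 2.73 and 3.95 at P2, 4.11 and 6.16 at P7, and 6.56 and 2.88 at P28. In fibroblasts Mcm7 was 5.34 and 3.41 at E18.5, 4.09 and 2.62 at P0.5, 2.49 and 2.47 at P2, 7.35 and 3.76 at P7, 2.36 and 0.399 at P28, and 2.55 at P56. Mcm7 showed no such order in epithelium, and fibroblast P28 was below P7. The last exon of Mcm7 overlaps Cops6 on the opposite strand. Cops6 was 63.8 and 69.7 in fibroblasts at P7, 48.4 and 29.9 in fibroblasts at P28, and 83.0 and 60.2 in epithelium at P28. At P0.5 it was 67.0 and 78.6 in fibroblasts and 109 and 90.8 in epithelium, and its part in the Mcm7 values was not tested. The remaining subunits Mcm5 and Mcm6, with Mcm4 in epithelium, stayed between 0 and 5.41.

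Of the genes that turn the loaded helicase on, Gins2 (chr8:120578633-120589304), a GINS subunit, carried most of the signal. In epithelium Gins2 values were 6.16 and 1.89 at E18.5, 11.8 and 12.7 at P0.5, 10.9 and 2.64 at P2, 40.7 and 42.2 at P7, and 56.4 and 40.3 at P28. Fibroblast Gins2 was 18.8 and 22.6 at E18.5, 7.55 and 6.74 at P0.5, 29.5 and 48.3 at P2, 93.0 and 49.3 at P7, 10.04 and 9.97 at P28, and 3.36 at P56. Both cell types were higher at P7 than at any earlier stage, and at P28 the epithelial libraries were at 40.3 and above and both fibroblast libraries below 11. The last exon of Gins2 overlaps an exon of Gse1 on the opposite strand, and the sources used here do not say whether counting used the strand. Gse1 itself was 19.0 to 51.4 in epithelium, lowest in both P28 libraries, and 11.2 to 23.3 in fibroblasts. Mcm10, which helps to activate the helicase, was 1.65 to 4.76 in epithelium and 0 to 3.09 in fibroblasts. Cdc45, Gins1 and Gins3, other parts of the active helicase, stayed at 4.76 or below.

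The primase and polymerase genes were among those with the most reads. Prim1 in epithelium was at 11.7 and 15.1 at E18.5, 22.8 and 18.4 at P0.5, 29.2 and 24.1 at P2, 139 and 107 at P7, and 95.8 and 90.4 at P28. The fibroblast libraries had Prim1 at 43.0 and 27.3 at E18.5, 54.1 and 40.1 at P0.5, 82.1 and 92.4 at P2, 186 and 111 at P7, 32.8 and 36.7 at P28, and 9.26 at P56. Prim1 (chr10:128015168-128030037), the catalytic primase subunit that starts each new strand, was higher in every epithelial P7 and P28 library than in any earlier one, and fibroblast P28 returned into the E18.5 range. The epithelial Pola1 values were 12.3 and 7.57 at E18.5, 3.30 and 1.13 at P0.5, 5.93 and 10.2 at P2, 18.1 and 31.3 at P7, and 22.0 and 15.3 at P28. In fibroblasts Pola1 stood at 15.4 and 18.3 at E18.5, 4.72 and 2.62 at P0.5, 28.1 and 29.9 at P2, 36.5 and 20.9 at P7, 10.04 and 14.4 at P28, and 4.16 at P56. Pola1, the polymerase that extends the primer, was lowest at P0.5 in both cell types up to P28, without overlap with any other stage to P28. Epithelial libraries had Pold1 at 57.4 and 90.3 at E18.5, 31.2 and 22.3 at P0.5, 60.2 and 76.1 at P2, 78.4 and 66.9 at P7, and 91.9 and 78.3 at P28. In fibroblasts Pold1 was 73.9 and 79.8 at E18.5, 25.5 and 31.1 at P0.5, 54.0 and 57.6 at P2, 55.1 and 44.3 at P7, 29.5 and 52.6 at P28, and 46.9 at P56. Pold1, the catalytic subunit of the lagging-strand polymerase, was also lowest in epithelium at P0.5 and in fibroblasts was highest in both E18.5 libraries. Pole, the leading-strand polymerase, stayed at or under 5.51.

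**Figure D3:**
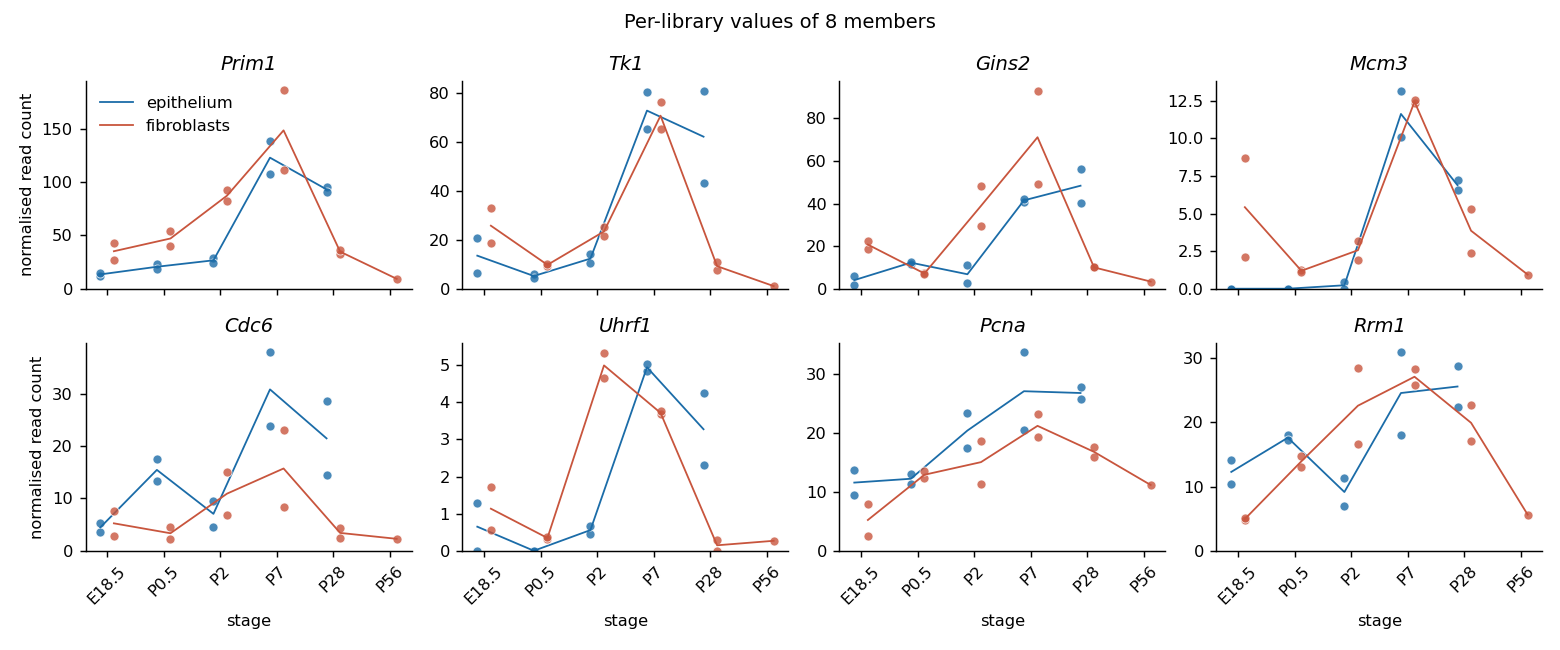
Normalised read count (vertical axes, each from 0) of 8 genes in each library (points) by stage (horizontal axes), with lines through stage means, for epithelium (blue) and fibroblasts (red). Prim1, Tk1, Gins2, Mcm3 and Cdc6 are high at P7 in both cell types and lower in fibroblasts at P28, while fibroblast Pcna and Rrm1 at P28 stay above both E18.5 libraries.

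The sliding clamp gene Pcna followed another course. In epithelium Pcna values were 13.6 and 9.47 at E18.5, 11.4 and 13.0 at P0.5, 17.3 and 23.4 at P2, 33.6 and 20.4 at P7, and 27.8 and 25.6 at P28. Fibroblast Pcna was 7.87 and 2.56 at E18.5, 12.3 and 13.5 at P0.5, 11.4 and 18.6 at P2, 23.1 and 19.2 at P7, 15.9 and 17.5 at P28, and 11.1 at P56. Epithelial Pcna at P28 was above both E18.5 libraries, and all fibroblast libraries after E18.5 were above both E18.5 libraries. Rfc2 in epithelium was at 11.0 and 11.4 at E18.5, 9.91 and 9.05 at P0.5, 5.93 and 4.28 at P2, 11.4 and 17.6 at P7, and 9.65 and 5.76 at P28. The fibroblast libraries had Rfc2 at 3.37 and 7.68 at E18.5, 4.41 and 6.74 at P0.5, 7.46 and 8.23 at P2, 7.35 and 9.60 at P7, 4.13 and 2.39 at P28, and 3.49 at P56. Rfc2, a subunit of the clamp loader, was lowest in epithelium at P2, where it overlapped P28, and overlapped between most fibroblast stages. Rfc5, another loader subunit, ranged from 1.47 to 6.95 in epithelium and from 0.798 to 6.46 in fibroblasts, and Rfc3 and Rfc4 stayed at or under 3.39.

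On the lagging strand, Fen1 trims the flaps between fragments and Lig1 joins them, and Rpa2 coats single-stranded DNA. The epithelial Fen1 values were 25.6 and 32.2 at E18.5, 20.9 and 15.6 at P0.5, 35.1 and 42.8 at P2, 26.5 and 40.3 at P7, and 55.6 and 29.1 at P28. In fibroblasts Fen1 stood at 22.2 and 20.9 at E18.5, 15.1 and 16.8 at P0.5, 21.7 and 28.8 at P2, 34.9 and 21.3 at P7, 24.8 and 20.3 at P28, and 8.06 at P56. Fen1 was lowest at P0.5 in both cell types up to P28, without overlap with any other stage to P28. It overlapped between most other stages, and the P56 library was at the bottom. In fibroblasts Rpa2 was 18.8 and 23.5 at E18.5, 5.98 and 10.5 at P0.5, 31.6 and 27.1 at P2, 23.1 and 12.9 at P7, 11.5 and 6.78 at P28, and 7.52 at P56. Fibroblast Rpa2 was lower in both P0.5 and both P28 libraries than in any E18.5, P2 or P7 library, while epithelial Rpa2 ranged from 3.46 to 16.2 with overlap between stages. Epithelial libraries had Lig1 at 3.57 and 1.89 at E18.5, 1.84 and 1.70 at P0.5, 0.456 and 0.659 at P2, 6.16 and 7.55 at P7, and 3.09 and 8.35 at P28. Fibroblast Lig1 was 2.25 and 2.99 at E18.5, 4.09 and 4.87 at P0.5, 8.18 and 5.76 at P2, 9.72 and 7.10 at P7, 1.77 and 2.39 at P28, and 2.69 at P56. Lig1 in epithelium was lowest in both P2 libraries and 6.16 or more in both P7 libraries, and in fibroblasts both P28 libraries lay below all P2 and P7 libraries.

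Among nucleotide supply genes, Tk1 (chr11:117815526-117826092) is the S phase thymidine kinase. In epithelium Tk1 values were 20.8 and 6.31 at E18.5, 5.88 and 4.52 at P0.5, 14.1 and 10.5 at P2, 65.4 and 80.6 at P7, and 81.1 and 43.5 at P28. The fibroblast libraries had Tk1 at 32.9 and 18.8 at E18.5, 9.44 and 10.1 at P0.5, 21.7 and 25.2 at P2, 65.4 and 76.4 at P7, 7.68 and 10.8 at P28, and 1.07 at P56. The P7 libraries of both cell types and the P28 libraries of epithelium were above 40, and all others were below 33. Rrm1 in epithelium was at 10.4 and 14.2 at E18.5, 18.0 and 17.3 at P0.5, 11.4 and 6.92 at P2, 18.1 and 31.1 at P7, and 22.4 and 28.8 at P28. In fibroblasts Rrm1 stood at 4.78 and 5.12 at E18.5, 14.8 and 13.1 at P0.5, 16.7 and 28.5 at P2, 28.4 and 25.9 at P7, 22.7 and 17.1 at P28, and 5.64 at P56. Rrm1, the large subunit of ribonucleotide reductase, was lowest in both E18.5 fibroblast libraries and stayed above them at P28. The epithelial Tyms values were 6.49 and 4.73 at E18.5, 1.10 and 1.41 at P0.5, 5.01 and 3.95 at P2, 5.42 and 7.55 at P7, and 10.4 and 6.05 at P28. Epithelial Tyms, which makes thymidylate, was lowest at P0.5, and in fibroblasts it ran from 2.25 to 9.60. The pseudogene Tyms-ps is counted as a row of its own, at 1.58 or below. Rrm2, the small reductase subunit, stayed at 4.63 or below. Dut, which removes dUTP, was 1.32 to 11.0 up to P28 and 24.7 in the single P56 library.

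E2f1, the activator of S phase genes, was measured well, and the E cyclins that start S phase were not. Epithelial libraries had E2f1 at 45.7 and 31.9 at E18.5, 32.7 and 26.0 at P0.5, 24.6 and 33.6 at P2, 78.3 and 49.2 at P7, and 71.4 and 45.5 at P28. In fibroblasts E2f1 was 34.3 and 23.0 at E18.5, 16.7 and 18.7 at P0.5, 33.4 and 38.4 at P2, 52.5 and 27.1 at P7, 25.1 and 21.9 at P28, and 21.6 at P56. Epithelial E2f1 had its highest means at P7 and P28, with P28 replicate 2 inside the E18.5 range, and fibroblast E2f1 was lowest at P0.5. Ccne1 and Ccne2 stayed at 4.73 or below in every library. The maintenance DNA methyltransferase Dnmt1 and its partner Uhrf1, which recognises half-methylated DNA behind the fork, were the chromatin copying genes with the most reads. In epithelium Dnmt1 values were 5.51 and 11.7 at E18.5, 4.41 and 5.37 at P0.5, 4.56 and 14.2 at P2, 16.8 and 17.6 at P7, and 20.5 and 12.7 at P28. Fibroblast Dnmt1 was 15.7 and 8.53 at E18.5, 5.66 and 3.74 at P0.5, 7.46 and 14.5 at P2, 7.61 and 17.5 at P7, 4.13 and 3.19 at P28, and 6.44 at P56. Epithelial Dnmt1 at P7 was above every earlier library, and fibroblast P28 was below both P2 and both P7 libraries. Uhrf1 in epithelium was at 1.30 and 0 at E18.5, 0 and 0 at P0.5, 0.456 and 0.659 at P2, 4.86 and 5.04 at P7, and 4.25 and 2.30 at P28. The fibroblast libraries had Uhrf1 at 0.562 and 1.71 at E18.5, 0.315 and 0.374 at P0.5, 5.33 and 4.66 at P2, 3.68 and 3.76 at P7, 0.295 and 0 at P28, and 0.269 at P56. Uhrf1 was at 1.71 or below in all E18.5 and P0.5 libraries, and was 4.86 or more in epithelium at P7 and 3.68 or more in fibroblasts at P2 and P7. The histone chaperone genes Chaf1a and Chaf1b were at 3.34 or below.

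Changes were tested with limma on log2(value + 1), in 1 fit per cell type over 12143 epithelial and 11954 fibroblast genes that reached 3 in at least 2 libraries, at an adjusted p of 0.05. This left 27 members tested in epithelium and 28 in fibroblasts. Orc1, Cdt1, Cdc45, Gins3, Rfc3, Rfc4, Ccne2, Chaf1a and Chaf1b were too low in both, Mcm5, Gins1 and Ccne1 too low in epithelium and Mcm6 and Mcm10 too low in fibroblasts. The 12 untested members of epithelium summed to 6.38 to 22.7 per library and the 11 of fibroblasts to 2.52 to 14.4. Because the filter keeps a gene through the stages where it is high, the counts describe the tested members only.

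Across birth, from E18.5 to P0.5, the polymerase genes Pola1 and Pold1 fell in both cell types. Mean Prim1, of the same role, went from 13.4 to 20.6 in epithelium and from 35.1 to 47.1 in fibroblasts, and was not called. In epithelium Pola1 fell by 1.82 (SE 0.43, adjusted p = 0.0132), Tyms fell by 1.54 and Pold1 fell by 1.41 on the log2 scale, and Cdc6 rose by 1.60 (SE 0.41, adjusted p = 0.019). These are 3 of 27 lower and 1 higher, a share near that of all genes tested, of which 14.3% were called in either direction. The member median was −0.27, against −0.02 over all genes. In fibroblasts Pola1 fell by 1.97 (SE 0.36, adjusted p = 0.00101), Pold1 fell by 1.42, Gins2 fell by 1.41, Rpa2 fell by 1.30 and Tk1 fell by 1.26, while Rrm1 rose by 1.33 (SE 0.33, adjusted p = 0.0103) and Pcna by 1.30. These are 5 of 28 lower and 2 higher, with 15.4% of all genes called, and the member median was −0.51, against −0.01. With no filter 11 of 39 members had a higher mean at P0.5 and 27 a lower one in epithelium, and 9 a higher and 28 a lower one in fibroblasts. Endothelial markers in epithelium summed to between 28.1 and 55.1 at E18.5 and between 6.24 and 6.50 at P0.5, with both tested genes, Kdr and Tie1, called lower. Erythroid markers went from between 799 and 2881 to between 4099.9 and 6178 in epithelium and from between 629 and 895 to between 2739 and 3592 in fibroblasts, and the part of these cells in the changes was not tested. The Cdc6 call in epithelium was lost with no filter and without E18.5 replicate 1 or either P0.5 library, and the lower count was 1 without E18.5 replicate 1 or P0.5 replicate 2. In fibroblasts the higher calls numbered 1 without E18.5 replicate 2 and 0 without either P0.5 library, and the lower ones 3 without either P0.5 library.

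From P0.5 to P2 the fibroblasts gained replication transcripts and the epithelium showed few changes. In fibroblasts 11 of 28 tested members rose and none fell, where 9.74% of all genes rose. The largest were Pola1 at 2.72 (SE 0.36, adjusted p = 3.85e-05) and Gins2 at 2.25 (SE 0.34, adjusted p = 0.00014), followed by Mcm2, Uhrf1, Mcm4, Rpa2, Rrm2 and Tk1 at 2.18 to 1.18 and by E2f1, Pold1 and Prim1 at 0.98 to 0.89. Mcm2, Uhrf1 and Rrm2 had 2 reads each at P0.5, and their ratios of reads were 15.5 (95% interval 3.98 to 133), 14.6 (3.73 to 126) and 9.60 (2.35 to 84.4), counting error only. Rrm2, and Mcm5 and Pole, which were not called, reached the filter value of 3 only in fibroblast P2 replicate 2 and a P7 library. The rise of these genes to P2 is therefore not independent of the filter, also within the counts of tested members given here. The member median was 0.93, against 0.03 over all genes, and 24 of 28 were positive. In epithelium Pola1 rose by 1.54 (SE 0.43, adjusted p = 0.0423) and Pold1 by 1.32 (SE 0.25, adjusted p = 0.00774), which is 2 of 27 with 5.13% of all genes called higher, and the member median was 0.06, against 0.03. Without a filter 33 of 39 members had a higher mean at P2 in fibroblasts and 22 in epithelium, beside 51.4% and 53.0% of all genes with reads. Summed fibroblast markers in fibroblasts were between 17632 and 18269 at P0.5 and between 24406 and 27381 at P2, with 4 of 6 called higher and 1 lower, and whether they bear on the rise was not tested. The fibroblast count was 3 and 4 without P0.5 replicate 1 and 2, and 4 and 5 without P2 replicate 1 and 2, with Mcm4, Gins2 and Pola1 called in every setting. The epithelial count was 0 without P0.5 replicate 2 and 1 without any of the other 3 libraries.

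From P2 to P7 the epithelium gained replication transcripts. Of 27 tested members 7 rose and none fell, where 1.55% of all genes rose. Mcm3 rose by 3.38 (SE 0.45, adjusted p = 0.000991) and Gins2 by 2.69 (SE 0.50, adjusted p = 0.00843), and Tk1, Lig1, Prim1, Cdc6 and Rrm1 rose by 2.48, 2.33, 2.16, 2.02 and 1.32. Mcm3 had 1 read at P2, so its ratio of reads was 60.0 with a 95% interval of 10.5 to 2393, and Lig1 with 3 reads had a ratio of 11.9 (3.88 to 59.2). The member median was 1.18, against 0.01 over all genes, 25 of 27 were positive, and with no filter 37 of 39 had a higher mean at P7, beside 52.3% of all genes with reads. Uhrf1, Pole and Rrm2, which were not called, needed a P7 library to pass the filter in epithelium. Their rise to P7 is therefore not independent of the filter, also within the median and the count of positive members. Leukocyte markers other than Cd74 summed to between 126 and 406 at P2 and between 28.8 and 40.0 at P7, where Ptprc, Fcer1g and Coro1a were at 0. Erythroid markers summed to between 2062 and 7400 at P2 and between 56.6 and 304 at P7. Fibroblast markers in epithelium summed to between 654 and 876 at P2 and between 156 and 166 at P7, with 4 of 5 tested called lower, and the part of these cells in the rise was not tested. The count was 3 without either P7 library, and Mcm3 and Prim1 were called in every setting. In fibroblasts Mcm3 rose by 1.94 (SE 0.54, adjusted p = 0.0344) and Tk1 by 1.56 (SE 0.32, adjusted p = 0.00577), which is 2 of 28 with 2.36% of all genes called higher, and the member median was 0.36. That count was 0 without P2 replicate 1 or P7 replicate 2 and 1 without P2 replicate 2 or P7 replicate 1.

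From P7 to P28 the fibroblasts lost replication transcripts, and no member passed the test in epithelium. In fibroblasts 12 of 28 tested members fell and none rose, where 9.49% of all genes fell. Tk1 fell by 2.83 (SE 0.32, adjusted p = 3.59e-06) and Gins2 fell by 2.64 (SE 0.34, adjusted p = 1.3e-05), and Gins1, Uhrf1 and Prim1 had changes of −2.05, −2.05 and −2.02. Cdc6, Rfc5, Lig1, Mcm7, Mcm3, Dnmt1 and Pola1 had changes of −1.81 to −1.14. Gins1 and Uhrf1 had 1 read each at P28 and 23 at P7, and their ratio of P7 to P28 reads was 22.5 (95% interval 3.66 to 928). Gins1, and Ccne1, which was not called, passed the filter only through their P7 libraries. Mcm5, Pole and Rrm2, also not called, reached the filter value of 3 only in a P7 library and P2 replicate 2. The fall of all these genes from P7 is therefore not independent of the filter, also within the counts and the median of tested members given here. All 28 tested members were negative with a median of −1.22, against 0.0020 over all genes, and with no filter 38 of 39 had a lower mean at P28 and 1 an equal one, beside 47.7% of all genes with reads. Fibroblast leukocyte markers summed to between 0 and 4.20 at P7 and between 40.8 and 147 at P28, erythroid markers to between 94.0 and 182 and between 659 and 2878, and their part in the fall was not tested. The count was 5 without P7 replicate 1 or P28 replicate 2, 6 without P28 replicate 1 and 5 with DESeq2, and Gins2, Prim1 and Tk1 were called in every setting. In epithelium 0 of 27 members were called by limma, edgeR or DESeq2, with 7.28% of all genes called by limma, and 1 had an unadjusted p under 0.05 (Rfc2, chosen after its value was seen, −0.84, SE 0.36). The changes ran from −0.84 to 0.29 with a median of −0.13. Leukocyte markers other than Cd74 in epithelium summed to between 28.8 and 40.0 at P7 and between 1143 and 1329 at P28. Fibroblast markers there summed to between 156 and 166 at P7 and between 2298 and 2380 at P28. What these cells added to the P28 member levels was not tested.

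**Figure D4:**
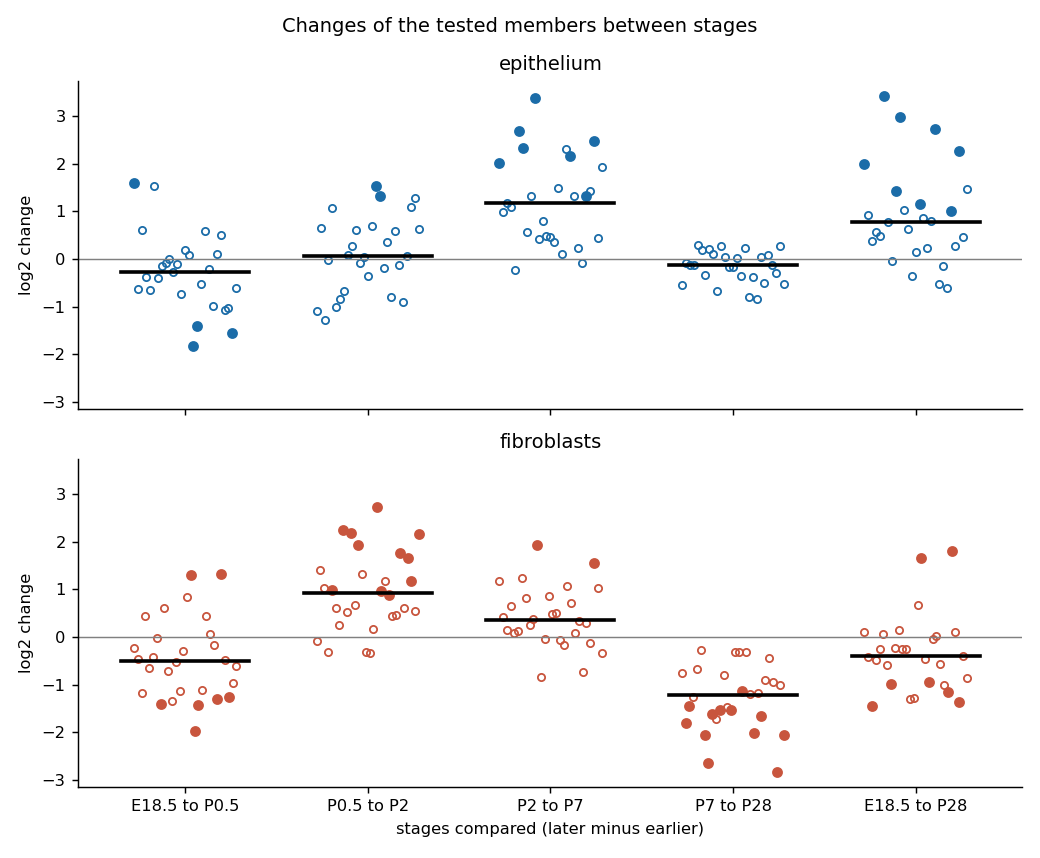
Log2 change between stages (vertical axis, later minus earlier) of each tested gene, 27 in epithelium (upper panel) and 28 in fibroblasts (lower panel); filled points passed an adjusted p of 0.05 and black bars are medians. The epithelial points lie highest from P2 to P7 with a median of 1.18, and all fibroblast points lie below 0 from P7 to P28 with a median of −1.22.

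Over the whole course from E18.5 to P28 the cell types ended apart. In epithelium 8 of 27 tested members rose and none fell, where 13.5% of all genes rose. Gins2 rose by 3.42 (SE 0.50, adjusted p = 0.00019) and Mcm3 by 2.98 (SE 0.45, adjusted p = 0.000265), and Prim1, Tk1, Cdc6, Mcm2, Pcna and Rrm1 rose by 2.72 to 1.01. Mcm3 had 0 reads in both E18.5 libraries, and against a floor of 3 reads per library it was at least 7.07-fold higher at P28. The member median was 0.77, against 0.03 over all genes. The P28 libraries with these levels also held leukocyte markers other than Cd74 at 1143 to 1329, with none of the 7 listed genes in the tables at 0, against 90.5 to 231 at E18.5. Endothelial markers there summed to between 4.63 and 13.0 at P28, against 28.1 to 55.1 at E18.5. Fibroblast markers there summed to between 2298 and 2380 at P28, against 370 to 385 at E18.5. At P7 the summed members were 656 and 641. Leukocyte markers other than Cd74 were then 28.8 to 40.0 and fibroblast markers 156 to 166. The part of other cells in the rise was not tested. In fibroblasts Dnmt1, Tk1, Rpa2, Gins2 and Pold1 had changes of −1.44 to −0.94, while Rrm1 rose by 1.80 (SE 0.33, adjusted p = 0.000309) and Pcna by 1.66 (SE 0.40, adjusted p = 0.00314). This is 5 of 28 lower and 2 higher, with 33.6% of all genes called, and the member median was −0.41. The epithelial count was 5 without P28 replicate 1, and Cdc6, Mcm3, Gins2, Prim1 and Tk1 were called in every setting. The fibroblast lower count was 2 without E18.5 replicate 1 or P28 replicate 2 and 3 without E18.5 replicate 2 or P28 replicate 1, and the higher count was 1 without E18.5 replicate 2.

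The cell types were then compared at each stage on 1 scale, CPM (reads scaled to a common library total) from the reads behind the deposited values over the 20004 genes in both kinds of table, scaled together by TMM. Of the 39 members 31 passed the filter, all but Orc1, Cdt1, Gins3, Rfc3, Rfc4, Ccne2, Chaf1a and Chaf1b, and 13386 genes were tested. At E18.5 epithelium had less Mcm3 (−2.41, SE 0.47, adjusted p = 0.000248), less Gins2 (−2.22, SE 0.46, adjusted p = 0.000504), and less Prim1, Mcm4 and Tk1, and more Rrm1 (1.15, SE 0.33, adjusted p = 0.00813), Pcna (1.14) and Rfc2 (0.99). These are 5 lower and 3 higher, with 38.2% of all genes called. The Gins2 levels were 6.02 and 1.79 CPM in epithelium and 18.1 and 21.4 in fibroblasts, without overlap, and Mcm3 was at 0 in epithelium and at least 5.61-fold higher in fibroblasts. At P0.5 Cdc6 (1.95, SE 0.52, adjusted p = 0.00434) and Mcm10 (1.69, SE 0.48, adjusted p = 0.00747) were higher in epithelium and Prim1 lower (−1.15, SE 0.27, adjusted p = 0.0016), 3 of 31 with 41.0% of all genes called. Mcm10 had 2 fibroblast reads, a ratio of 9.75 (95% interval 2.38 to 85.8). The member median at P0.5 was −0.05, and 0.06 with genes at 0 set to their bound. The higher calls at E18.5 numbered 1 without either epithelial library, 1 with edgeR or DESeq2 and 5 without fibroblast replicate 1, the lower ones there 3 with edgeR, with DESeq2 or without a filter, and the higher ones at P0.5 were 0 without fibroblast replicate 1.

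At P2 the fibroblasts led, at P7 no member was called, and at P28 the epithelium led. At P2 11 of 31 members were lower in epithelium and none higher, where 19.4% of all genes were lower. Gins2 (−2.57, SE 0.46, adjusted p = 0.000109) and Lig1 (−2.32, SE 0.42, adjusted p = 0.00012) differed most. Gins2 was 10.4 and 2.42 CPM in epithelium and 27.9 and 46.6 in fibroblasts, and Lig1 was 0.435 and 0.605 against 7.72 and 5.55. Neither gene overlapped between the cell types, and with 3 epithelial reads the Lig1 ratio was 12.3 (95% interval 3.93 to 61.8). Mcm4, Uhrf1, Pola1, Prim1, Rpa2, Mcm3, Rrm2, Mcm5 and Rrm1 had differences of −2.17 to −1.23. Uhrf1, Mcm3 and Mcm5 had 3, 1 and 2 epithelial reads there. Their ratios of fibroblast to epithelial reads were 8.92 (95% interval 2.79 to 45.5), 13.4 (2.08 to 561) and 7.11 (1.69 to 63.4). Mcm5 reached the filter value of 3 only in fibroblast P2 replicate 2 and P7 replicate 1 (3.44 and 3.55 CPM). Its call is therefore not independent of the filter, also within the count of 11, and was lost with edgeR and with DESeq2. At P7 0 of 31 members were called by limma, edgeR or DESeq2, with 35.5% of all genes called by limma, and 3 had an unadjusted p under 0.05. The differences at P7 ran from −1.04 to 1.03, with a median of 0.02. At P28 11 of 31 members were higher in epithelium and none lower, where 19.5% of all genes were higher. Tk1 (2.51, SE 0.40, adjusted p = 3.04e-05) and Cdc6 (2.24, SE 0.52, adjusted p = 0.00144) differed most. Tk1 was 74.1 and 41.6 CPM in epithelium and 7.52 and 10.6 in fibroblasts, and Cdc6 was 26.1 and 13.8 against 4.34 and 2.36, without overlap. Gins2, Mcm2, Dnmt1, Uhrf1, Rfc5, Prim1, Mcm7, E2f1 and Pold1 were higher by 2.07 to 1.01. Uhrf1 had 1 fibroblast read at P28 and 19 epithelial reads, a ratio of 18.4 (95% interval 2.93 to 765). Leukocyte markers other than Cd74 summed to between 1143 and 1329 in epithelium at P28 and between 34.3 and 124 in fibroblasts. Fibroblast markers in epithelium at P28 summed to between 2298 and 2380, and the part of other cells in these differences was not tested. Over all genes tested the median difference was −0.00047 at P2 and 0.01 at P28, and over members −0.79 and 0.85. The count at P2 was 7 without epithelial replicate 2, that at P28 was 7 without epithelial replicate 1, and at P7 2 members were called higher without fibroblast replicate 1.

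**Figure D5:**
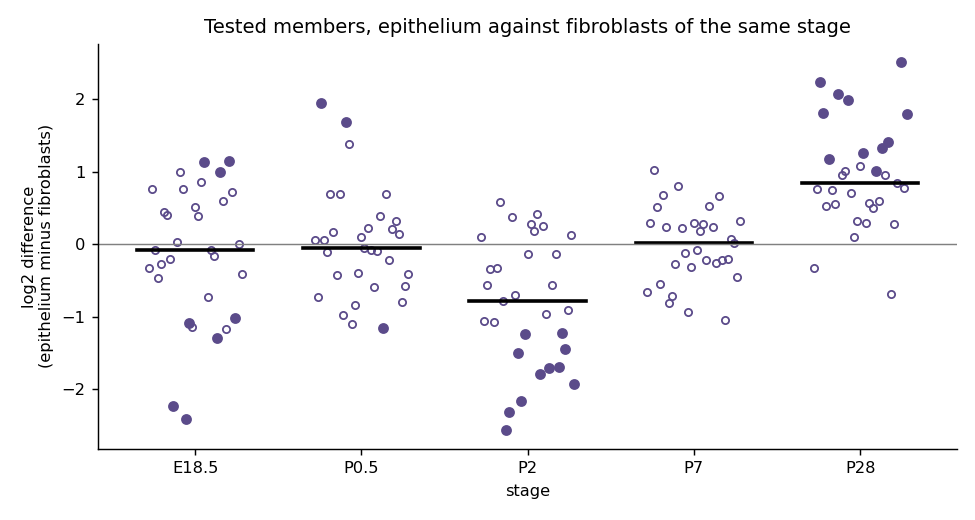
Log2 difference between epithelium and fibroblasts (vertical axis, epithelium minus fibroblasts) of the 31 tested genes at each of the 5 shared stages (horizontal axis); filled points passed an adjusted p of 0.05 and black bars are medians. The median is −0.79 at P2, 0.02 at P7 and 0.85 at P28.

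Whether a change differed between the cell types was tested as an interaction, the epithelial change minus the fibroblast change. From E18.5 to P0.5 Gins2 was 1 of 31 members with a higher value (2.92, SE 0.65, adjusted p = 0.0145), where 1.55% of all genes were called higher. From P0.5 to P2 Gins2 (−3.26, SE 0.65, adjusted p = 0.00539) and Cdc6 (−2.52, SE 0.73, adjusted p = 0.0491) were lower, 2 of 31 with 2.58% of all genes called lower. From P2 to P7 limma called 0 of 31 members, with 1.61% of all genes called, although 12 had an unadjusted p under 0.05, and edgeR and DESeq2 called 1 each. Of all genes called there, 52.8% were higher by limma and 41.6% by DESeq2. From P7 to P28 Gins2 (2.79, SE 0.65, adjusted p = 0.00864), Tk1 (2.49, SE 0.57, adjusted p = 0.00733) and Prim1 (1.58, SE 0.38, adjusted p = 0.0109) were higher, 3 of 31 with 3.12% of all genes called higher. All 31 members had a positive value in that step, with a median of 0.78, against −0.05 over all genes. Gins1 and Ccne1 passed the filter only through fibroblast P7 libraries, and Mcm5 and Cdc45 needed fibroblast P7 replicate 1 to pass. The positive values of these genes are therefore not independent of the filter. From E18.5 to P28 7 of 31 members were higher and none lower, where 5.23% of all genes were called higher: Gins2 (4.30, SE 0.65, adjusted p = 0.000102), Tk1 (3.53, SE 0.57, adjusted p = 0.000189), Mcm3, Prim1, Cdc6, Dnmt1 and Uhrf1. The Gins2 call from E18.5 to P0.5 was lost without E18.5 replicate 2 of either cell type, either epithelial P0.5 library or fibroblast P0.5 replicate 2, and 1 member was called lower without fibroblast E18.5 replicate 1. The P0.5 to P2 count was 1 without any P0.5 library or fibroblast P2 replicate 2, and the P2 to P7 count was 1 without epithelial P2 replicate 1 or fibroblast P7 replicate 1. The P7 to P28 count was 1 without fibroblast P7 replicate 1, and the E18.5 to P28 count was 4 without epithelial P28 replicate 1.

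Other genes of the pathway were taken from lists of 34 further replication factors, 20 further S phase genes, 6 D cyclins and their kinases, 12 CDK inhibitors, pocket proteins and repressive E2Fs, and 10 mitosis markers. From P2 to P7 in epithelium 0 of 28 tested replication factors passed, and 4 of 16 S phase genes rose, among them Brca1 (3.08), Atad2 (2.01) and Dscc1 (2.06), beside 1.55% of all genes. Ccnd1, the D cyclin that starts G1 progression, rose by 1.48, as 1 of 6 in its list, and the mitosis markers Top2a (2.98) and Mki67 (1.93) rose as 2 of 5 tested. From P7 to P28 in fibroblasts 7 of 27 replication factors fell, led by Wdhd1 (−2.48), Pole2 (−1.83) and Cdc7 (−1.46), and 8 of 15 S phase genes fell, led by Cdca7 (−2.75), Dscc1 (−2.64) and E2f7 (−2.50), beside 9.49% of all genes. Ccnd2, Cdk4 and Ccnd1 fell as 3 of 6 (−1.24, −2.11 and −1.64), and Top2a, Mki67 and Bub1 as 3 of 5 mitosis markers (−2.78, −2.09 and −1.88). In the same step Cdkn1a, which encodes the CDK inhibitor p21, rose by 1.12, where 11.3% of all genes rose, and Cdkn1c, another CDK inhibitor, and the pocket protein gene Rbl1 fell by 1.45 and 1.44.

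Cdkn1a had its steepest change in fibroblasts across birth. It was 261 and 145 at E18.5 in fibroblasts and 1828 and 1889.9 at P0.5, a change of 3.25 (adjusted p = 4.26e-08) where 8.05% of all genes rose, while in epithelium it was 1663 and 2047 at E18.5 and 2508 and 1985 at P0.5. The difference in change between the cell types was −2.99 (adjusted p = 3.42e-05). From E18.5 to P28 in epithelium Cdkn1c (−2.52), Cdkn2b (−2.10) and Cdkn1b (−1.14) fell and the pocket protein gene Rbl2 (0.71) rose, out of 10 tested in that list, where 11.3% of all genes fell and 13.5% rose. In the same comparison 4 of 28 replication factors rose (Timeless by 3.22, Tipin by 1.70, Wdhd1 by 1.23 and Rpa1 by 0.70), a share near that of all genes. Of 16 further S phase genes 8 rose, led by Brca1 (3.60), and E2f2 (−1.35) and E2f7 (−1.72) fell, and Ccnd1 rose by 2.42. Rbl2, Wdhd1, E2f2 and E2f7 were named after their values were seen. From P0.5 to P2 in fibroblasts 4 of 27 replication factors rose (Rfc1 by 1.07, Cdc7 by 1.50, Mcmbp by 0.64 and, named after its value was seen, Wdhd1 by 1.57), where 9.74% of all genes rose. Of 15 further S phase genes 3 rose, among them Dck (1.13) and Cdca7 (1.50).

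At P56 the only library had no replicate and was not tested. Its Tk1 value of 1.07, Prim1 value of 9.26, Gins2 value of 3.36, Fen1 value of 8.06 and Pola1 value of 4.16 lay below both P28 fibroblast libraries, and its Dut value of 24.7 lay above every other library. Mki67 was at 0 there and Top2a at 1.21, and the leukocyte and erythroid markers summed to 1.61 and 0.134. Members whose last exon overlaps a gene on the opposite strand are Gins2, Mcm7, Rfc2, Rfc4, Rfc5, Fen1, Ccne2 and Chaf1a by GENCODE M21, and their values are uncertain to the extent that reads were assigned without strand.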

How the data were processed

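The series holds 21 3' SAGE-seq libraries of sorted mouse lung cells. The deposited values are signal values per gene, whole read counts divided by a factor per library. Per the submitters' processing notes, Bowtie2 2.2.5, R 3.4.0 and build mm10 were used, and the counting, normalisation, annotation and use of strand are not given in the sources used here. Reads were recovered by dividing each value by that of 1 read, and 100% came out whole within 0.01 read, which gave depths of 2146071 to 5729829 reads. Values come from amplified reads without molecular identifiers, so floors (3 reads) and intervals cover counting error only.

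Groups follow the labels. Within a cell type, limma 3.58.1 (R 4.3.3, trend, two-sided, Benjamini-Hochberg adjustment over all genes tested) was fitted on log2(value + 1), after a filter of 3 in at least 2 libraries, with 5 residual degrees of freedom. The P56 library had its own mean. Cell types were compared on CPM from the recovered reads with TMM scaling, filtered likewise, with 10 residual degrees of freedom. A fold change on log2(value + 1) understates the change of low genes, and an SE is that of the fitted change. Alternatives were a pseudocount of 5, no filter, edgeR 4.0.16 and DESeq2 1.42.0 on recovered reads, a replicate block and each library left out. Scripts were tested on simulated data.

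The members and all lists were chosen with earlier results of these data known. All 39 members may be named. Library values are given for the 2 members with the highest mean in each role and cell type, with a few others, and for the 2 with the largest change per direction and comparison. Of other lists, up to 3 genes per comparison with the smallest p are named, and exceptions are stated; not every gene of these lists is reported here by name. Gene positions are from GENCODE M21 (GRCm38, the build mm10) and promoters from RefSeq. Every value column was used.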

Additional observations from a re-analysis of the deposited data

Results flagged for a closer look

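Of the changes between stages, 13 differed between the cell types by the interaction test (epithelial change minus fibroblast change, limma, log2 scale). Gins2 was among them in 4 comparisons, with 2.92 from E18.5 to P0.5, −3.26 from P0.5 to P2, 2.79 from P7 to P28 and 4.30 from E18.5 to P28. Across birth both epithelial P0.5 libraries (11.8 and 12.7) lay above both E18.5 libraries (6.16 and 1.89), and both fibroblast ones (7.55 and 6.74) lay below theirs (18.8 and 22.6). Cdc6 differed by −2.52 from P0.5 to P2 and by 2.32 from E18.5 to P28. From P7 to P28 Tk1 differed by 2.49 and Prim1 by 1.58. Over the whole course from E18.5 to P28 the difference was 3.53 for Tk1, 3.11 for Mcm3, 2.62 for Prim1, 2.28 for Dnmt1 and 2.21 for Uhrf1. Mcm3 had 0 reads in epithelium at E18.5, so its fitted value depends on the pseudocount. Uhrf1 had 4 epithelial reads at E18.5 and 1 fibroblast read at P28, and its call was lost with edgeR and with DESeq2. Both Cdc6 calls were lost with no filter. The comparisons share groups, so the values of 1 gene are not independent of each other.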

How the results depend on the processing

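With 2 libraries per group, the number of members called moved with the settings more than the direction did: none of the 41 named changes reversed, and of their 396 values under alternatives 331 stayed past the threshold and 65 did not, 49 of these with a library left out, which leaves 1 sample in a group that is assumed to vary like the others. Of 106 member calls 37 held under every setting and with every library of the comparison left out, and of 200 counts under settings other than left-out libraries 165 stayed within 1.5 times. The 9 members below the filter in both cell types were not tested, and whether more depth would bring them past it was not tested. Where a member called between 2 groups held 1 to 3 reads in 1 of them, depth limits the ratio to the wide intervals given.

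Without a filter on low values, which tests more genes, the higher calls from E18.5 to P0.5 were 0 in epithelium and 1 in fibroblasts, and the lower ones in fibroblasts 2. From P0.5 to P2 they were 1 in epithelium and 5 in fibroblasts, from P2 to P7 4 and 0, and the lower fibroblast calls were 6 from P7 to P28 and 1 from E18.5 to P28. Between cell types there were then 3 lower at E18.5, 1 higher at P2 and 1 higher at P7, and the interaction from P0.5 to P2 had 1. With DESeq2 the higher calls were 2 from E18.5 to P0.5 in epithelium, and in fibroblasts 1 from E18.5 to P0.5, 7 from P0.5 to P2, 1 from P2 to P7 and 5 lower from P7 to P28. With edgeR they were 1 from P0.5 to P2 in epithelium and 1 from E18.5 to P0.5 in fibroblasts. Between cell types both tools gave 1 higher and 3 lower at E18.5, 2 lower at P0.5 and 1 higher in the interaction from P2 to P7. With a pseudocount of 5 there was 1 from P0.5 to P2 in epithelium, 1 lower at P7 between cell types, and in the interaction 4 from P0.5 to P2 and 2 from P2 to P7.

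The tests above treat same-numbered libraries as unpaired. Their deviations correlated at −0.062 to 0.0996 over 25 pairs of groups, most of which join different stages. Between the cell types at the same stage the correlations were −0.055 to 0.0996. Low correlations cannot exclude that same-numbered libraries of both cell types came from the same animals, which the labels do not say. With a replicate block, 2 members were called higher from E18.5 to P0.5 in epithelium, 1 in the interaction from P0.5 to P2 and 1 in that from P2 to P7, and no other count moved by over 1.5 times.

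With each library left out in turn, the epithelial counts were 0 to 1 higher and 1 to 4 lower from E18.5 to P0.5, 0 to 1 from P0.5 to P2, 3 to 6 from P2 to P7 and 5 to 7 from E18.5 to P28. The fibroblast counts were 0 to 2 higher and 3 to 4 lower from E18.5 to P0.5, 3 to 5 from P0.5 to P2, 0 to 1 from P2 to P7, 5 to 10 lower from P7 to P28, and 1 to 2 higher and 2 to 3 lower from E18.5 to P28. Between cell types they were 1 to 5 higher at E18.5, 0 to 2 higher at P0.5, 7 to 12 lower at P2, 0 to 2 higher at P7 and 7 to 13 higher at P28. The interaction counts were 0 to 1 in each direction from E18.5 to P0.5, 1 to 3 from P0.5 to P2, 0 to 1 from P2 to P7, 1 to 3 from P7 to P28 and 4 to 7 from E18.5 to P28. Apart from these constructions the cause was not tested.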
